A study of Mus musculus with 8 samples.

Results

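The RNA of 9 genes in which mutations cause polycystic kidney or polycystic liver disease was described in mouse tubuloids. They were *Pkd1*, *Pkd2*, *Pkhd1*, *Ganab*, *Prkcsh*, *Sec63*, *Dnajb11*, *Alg9* and *Dzip1l*, chosen by name and not by their values. All 9 were found, as 15 of the 33068 RefSeq transcripts and 9 of the 24063 genes in the deposited tables. Each passed the filter on low counts and was tested among 16557 genes. Levels are given as TPM, the authors' measure of transcript abundance normalized for transcript length and library, for the transcript of each gene with the highest mean count.

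Tubuloids are epithelial structures that form in Matrigel from tubule fragments of mouse kidney, labelled as postnatal day 7 to 10. All 8 cultures carried the genotype Pkd2fl/fl Pax8rtTA TetOCre mTmG, in which a *Pax8* promoter drives a doxycycline-dependent activator in renal epithelium, Cre then removes part of *Pkd2* and the mTmG reporter turns from red to green. No doxycycline is named for the GDNF or the control cultures, and both groups carry the same floxed *Pkd2*; whether any of it was deleted was not tested. In 4 cultures (numbers 6, 12, 17 and 22) a 24 h pulse of GDNF (glial cell line-derived neurotrophic factor, 20 ng/ml) was added to the growth factor medium, 4 control cultures (numbers 3, 7, 14 and 21) received the same medium without it, and RNA was taken from all on culture day 7. The labels do not say which cultures came from separate mice, so that p-values measure the spread between cultures.

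Polycystin-1 (*Pkd1*) and polycystin-2 (*Pkd2*) form a receptor and channel complex that is found in the primary cilium of kidney tubule cells, and loss of either causes autosomal dominant polycystic kidney disease. Fibrocystin (*Pkhd1*), a membrane protein of the cilium that is prominent in the collecting duct, is the product of the main gene of the recessive disease. *Ganab*, *Prkcsh*, *Sec63*, *Dnajb11* and *Alg9* encode proteins of the endoplasmic reticulum that trim sugars on, translocate, fold or glycosylate new membrane proteins, polycystin-1 among them. *Dzip1l* encodes a protein of the cilium base that is linked to a second recessive form. GDNF signals through the receptor Ret and drives branching of the ureteric bud, from which the collecting duct grows.

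The genes differ widely in size. On the mouse build GRCm38 (GENCODE M21, transcripts paired with the RefSeq accession of the tables) *Pkd1* spans chr17:24549950-24596508 in 46 exons, *Pkd2* chr5:104459450-104505819 in 15 and *Pkhd1* chr1:20057779-20618064 in 67. *Ganab* lies at chr19:8898101-8916672, *Prkcsh* at chr9:22003018-22014222, *Sec63* at chr10:42761496-42832514, *Dnajb11* at chr16:22857845-22872388, *Alg9* at chr9:50775019-50843528 and *Dzip1l* at chr9:99629542-99669256. The transcript length implied by the deposited counts and FPKM was 14170 bp for *Pkd1* and 12928 bp for *Pkhd1*, longer than 99.6% and 99.5% of genes, against a median of 2437 bp. It was 6032 bp for *Sec63*, 5212 bp for *Pkd2*, 3974 bp for *Ganab*, 3928 bp for *Dzip1l*, 2778 bp for *Alg9*, 2069 bp for *Prkcsh* and 2004 bp for *Dnajb11*. The library kit does not mark strand, and 4 members have exon bases inside the span, introns included, of a gene on the opposite strand. For *Pkd1* this gene was the tuberous sclerosis gene *Tsc2* (693 bp, 4.89% of the exon bases of *Pkd1*). For *Pkhd1* it was the antisense RNA 4930486I03Rik (1226 bp, 9.48%). For *Sec63* it was the noncoding RNA Gm26860 (293 bp, 4.86%) and for *Alg9* 1110032A03Rik (500 bp, 17.4%). Whether these bases lie in exons of the other gene was not tested. Where they do, reads from them cannot be assigned to one of the pair.

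The promoters of the members did not share a common make-up of letters. RefSeq promoter windows of GRCm38.p6, 250 bases before to 50 after a gene's start, were matched for 9 of 9 members and searched on both strands for the GC box (GGGCGG), the CCAAT box (CCAAT) and the core of the endoplasmic reticulum stress element ERSE-II (TTGGNCCAC). The last holds a CCAAT box on the reverse strand where an A precedes it. The ERSE-II core was found in *Dnajb11* alone among the members and in 0.810% of 32851 windows. A GC box stood in the windows of *Pkd1*, *Ganab*, *Sec63* and *Dnajb11* and in 35.7% of all windows, and a CCAAT box in those of *Ganab*, *Sec63*, *Dnajb11* and *Alg9* and in 37.4% of all. *Pkd2*, *Pkhd1*, *Prkcsh* and *Dzip1l* had none of the 3. The RefSeq start of *Alg9*, at chr9:50775225, lay inside the span given above, which begins at chr9:50775019. Its CCAAT boxes lay after that RefSeq start. The RefSeq starts of *Pkd2* and *Pkhd1* lay a few bases inside their spans. The GC content of the windows ran from 43.3% (*Pkhd1*) to 66.7% (*Pkd1*), with a median of 52.7% over all windows. The bases upstream of the start of both polycystins and of fibrocystin are shown because these genes had the widest span of levels between cultures, apart from *Dzip1l*, with the matched motifs in capitals, and for *Dnajb11* a stretch of 30 bases across its start with the ERSE-II core in capitals.
Pkd1, chr17:24549700-24549949, + strand: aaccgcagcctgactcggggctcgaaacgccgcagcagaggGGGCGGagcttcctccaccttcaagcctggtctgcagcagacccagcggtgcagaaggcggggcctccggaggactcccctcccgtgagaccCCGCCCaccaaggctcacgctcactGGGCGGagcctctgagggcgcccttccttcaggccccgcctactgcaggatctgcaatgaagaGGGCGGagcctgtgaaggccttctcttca
Pkd2, chr5:104459207-104459456, + strand: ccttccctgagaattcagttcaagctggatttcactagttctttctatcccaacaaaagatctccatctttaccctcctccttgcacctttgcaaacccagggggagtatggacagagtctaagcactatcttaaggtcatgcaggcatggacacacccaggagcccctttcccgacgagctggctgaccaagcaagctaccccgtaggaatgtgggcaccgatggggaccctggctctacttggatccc
Pkhd1, chr1:20618058-20618307, - strand: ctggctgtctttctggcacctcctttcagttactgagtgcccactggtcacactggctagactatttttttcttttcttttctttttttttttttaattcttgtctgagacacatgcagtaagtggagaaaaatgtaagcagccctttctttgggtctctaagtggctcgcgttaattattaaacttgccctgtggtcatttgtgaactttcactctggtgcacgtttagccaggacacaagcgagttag
Dnajb11, chr16:22857843-22857872, + strand: ccggcggcgaTTGGCCCACgcctggctgct
The *Pkd1* stretch holds 4 GC boxes, and the *Pkd2* and *Pkhd1* stretches none of the 3 motifs. A match describes the letters and not a bound site.

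Total counts, in which a read can count for several transcripts of a gene, ranged from 72991721 to 97490625 per culture, and no member had fewer than 546 counts in any culture. The libraries differed in how much of their RNA came from long transcripts. Genes with transcripts of 4659 bp or more took 9.75% of the counts in control culture 3 and from 15.2% to 15.9% in the other controls, against 16.7% to 21.2% in the GDNF cultures, so that the groups did not overlap in this share. The TMM factor, which scales each library to the bulk of its genes, was 0.790 in control culture 3, 0.963 to 0.982 in the other controls and 1.07 to 1.11 in the GDNF cultures. The longest members, *Pkd1*, *Pkhd1*, *Sec63* and *Pkd2*, are of this length. *Xist* RNA marked 4 cultures (controls 3 and 7, GDNF 6 and 12) and Y-linked RNA the other 4, 2 of each kind in each group. Control culture 3 and GDNF culture 6 also held a little Y-linked RNA, at 1.502 and 6.46 TPM in sum, and are counted with the first kind. Tubule epithelium markers were present, at 444 to 3507 TPM in sum over 10 genes in controls and 1063 to 1536 TPM in GDNF cultures, beside stromal markers at 228 to 1778 and 281 to 1404 TPM. Markers of mature segments were uneven. *Aqp2* of the collecting duct reached at most 0.356 TPM, whereas *Fxyd4* reached 69.3 TPM, *Calb1* 43.2 TPM and *Avpr2* 4.43 TPM. *Slc34a1*, *Slc22a6* and *Lrp2* of the proximal tubule reached at most 0.0401, 0.0350 and 0.0899 TPM. The 8 proximal tubule markers summed to 5.32 to 10.3 TPM in controls and 12.2 to 15.3 TPM after GDNF, without overlap, and most of this was 1 gene, the glucose transporter *Slc5a2*, with means of 6.52 and 11.2 TPM. Higher GDNF groups without overlap were common in TPM, found for 23.4% of the 13698 genes whose mean reached 1 TPM. Of the 4 proximal tubule markers tested on counts, 0 met an unadjusted p of 0.05 in edgeR, higher or lower. Among these 4, *Cubn* had a negative log2 change (-0.77). The part of the 8 markers in the values of the members was not tested. Endothelial markers summed to 25.8 to 59.0 and 36.0 to 60.7 TPM, and immune markers to 4.82 to 9.02 and 4.65 to 44.8 TPM. In such bulk samples, fewer cells of a type and less RNA per cell cannot be told apart.

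**Figure D1:**
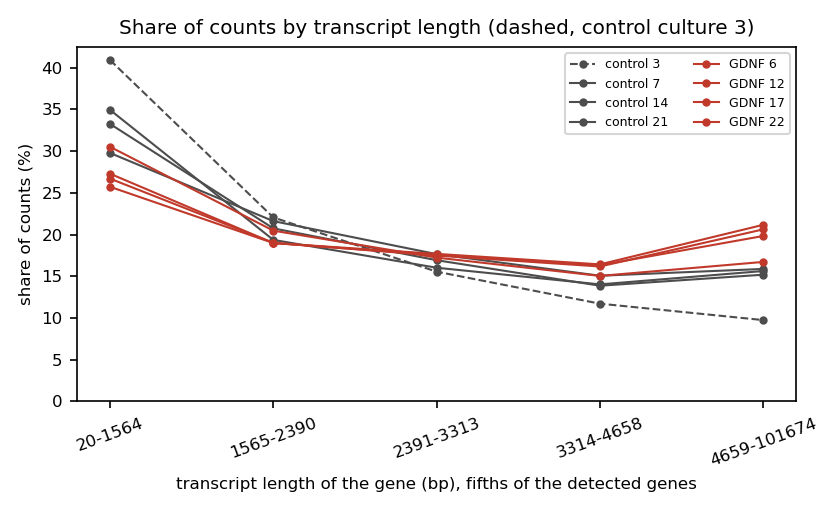
Share of a culture's counts (vertical axis, %) in genes grouped by transcript length (horizontal axis, 5 classes with equal numbers of genes, bp), with 1 line per culture. In the longest class all 4 GDNF cultures (red, 16.7% to 21.2%) lie above all 4 controls (grey), and control culture 3 (dashed) is lowest at 9.75%.

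The 9 genes spanned a wide range of levels, with 3 genes of the endoplasmic reticulum at the top and *Pkd1* and *Pkhd1* at the bottom. Over all 8 cultures the mean was 53.2 TPM for *Dnajb11*, a co-chaperone of the endoplasmic reticulum, 49.3 TPM for *Prkcsh*, the beta subunit of glucosidase II, and 39.9 TPM for *Ganab*, its catalytic alpha subunit. *Sec63*, a partner of the translocon, was at 21.9 TPM and *Pkd2* at 21.1 TPM. *Dzip1l* followed at 12.7 TPM, the mannosyltransferase *Alg9* at 9.96 TPM, *Pkd1* at 8.45 TPM and *Pkhd1* at 3.04 TPM. Among the 13698 genes whose mean reached 1 TPM, *Dnajb11* was above 84.4% and *Pkhd1* above 16.3%.

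Not every step in this order was larger than the spread between cultures. Ratios of neighbours within a culture were tested by an exact sign-flip permutation test, two-sided, with adjustment over the 8 neighbouring pairs. *Prkcsh* was above *Ganab* by 0.34 ± 0.28 on the log2 scale (SD, n = 8; exact p = 0.0078, the smallest the test allows, adjusted p = 0.0156), *Ganab* above *Sec63* by 0.84 ± 0.25, *Pkd2* above *Dzip1l* by 0.74 ± 0.16 and *Pkd1* above *Pkhd1* by 1.57 ± 1.01, each in 8 of 8 cultures and with the same p-values. The other 4 neighbours could not be ordered over all 8 cultures. *Dnajb11* was above *Prkcsh* in 6 of 8 cultures (exact adjusted p = 0.229) and *Dzip1l* above *Alg9* in 6 of 8 (exact adjusted p = 0.229). *Sec63* was above *Pkd2* in 4 of 8 (exact adjusted p = 0.492) and *Alg9* above *Pkd1* in 4 of 8 (exact adjusted p = 0.277). The order of *Sec63* and *Pkd2* went with treatment, as *Sec63* was higher in every control and *Pkd2* in every GDNF culture. By group means *Alg9* ranked 6 in controls and 8 after GDNF, and *Pkd1* ranked 8 and 7. With TPM summed over the transcripts of a gene, *Prkcsh* moved to rank 1 and *Dnajb11* to rank 2, and *Alg9* to rank 6 above *Dzip1l* at rank 7. The deposited counts of the 3 *Prkcsh* transcripts were almost equal (means 5223.75, 5224.12 and 5223.75), as were those of the 2 transcripts of *Ganab* and of *Alg9*, so that such sums count the same reads more than once. The 3 *Dnajb11* transcripts, of 2534, 2004 and 1628 bp, were at 31.1, 52.4 and 55.9 TPM in controls and at 32.1, 53.9 and 57.5 TPM after GDNF.

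The spread over cultures was also unequal. The highest culture exceeded the lowest 7.80-fold in TPM for *Pkhd1*, 5.68-fold for *Pkd1*, 3.80-fold for *Dzip1l* and 3.50-fold for *Pkd2*. For *Dnajb11*, *Prkcsh*, *Sec63* and *Alg9* it did so 1.56-fold, 1.64-fold, 1.81-fold and 1.91-fold, and for *Ganab* 2.57-fold.

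No member passed the test across all genes for a GDNF effect, though the polycystins, fibrocystin and *Dzip1l* were at higher means after GDNF and 4 of the 5 endoplasmic reticulum genes were not, once counts were scaled with TMM. In edgeR (quasi-likelihood F-test, p adjusted by Benjamini-Hochberg over 16557 genes), 0 genes and so 0 members were called at an adjusted p of 0.05 (percent called 0), with 3665 genes and 3 members (*Pkd1*, *Pkd2* and *Dzip1l*) at an unadjusted p of 0.05. All 3 were higher, a direction in which 9.25% of all genes met that unadjusted threshold, and none of the members was among the 12.9% that met it lower. limma-voom also called 0 genes, and DESeq2 called 1346 (8.13%) but no member. Some genes got no adjusted p from DESeq2 and count as not called in its shares, while every member had an adjusted p. The 3 members at the unadjusted threshold depended on single cultures. With 1 culture left out, *Pkd1* missed the unadjusted threshold without control culture 3 (edgeR, unadjusted p = 0.0653), control culture 21 (0.126) or GDNF culture 12, 17 or 22 (0.0771, 0.0931 and 0.0802). *Pkd2* missed it without GDNF culture 12 or 17 (0.0722 and 0.0756) and *Dzip1l* without GDNF culture 12 (0.0514), where none of the 3 met it. The smallest adjusted p among the members was 0.168 and over all genes 0.167.

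*Pkd1*, the polycystin-1 gene, was at 2.30, 7.43, 7.30 and 5.53 TPM in control cultures 3, 7, 14 and 21 and at 7.31, 11.9, 13.1 and 12.8 TPM in GDNF cultures 6, 12, 17 and 22. GDNF culture 6 lay at the upper edge of the controls and the other 3 GDNF cultures above all of them, while control culture 3 was lowest. The means were 5.64 ± 2.39 TPM in controls and 11.3 ± 2.69 TPM after GDNF (SD, n = 4 each), a 2.00-fold ratio (exact permutation test, two-sided, p = 0.0571, adjusted over all genes 0.162). On counts the log2 change was 0.65 ± 0.27 (SE; edgeR, adjusted p = 0.208). Without control culture 3 it was 0.44 ± 0.21 (adjusted p = 0.381).

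*Pkd2*, the channel partner and the floxed gene of these mice, was at 8.57, 16.7, 17.7 and 18.7 TPM in control cultures 3, 7, 14 and 21 and at 21.8, 29.3, 30.01 and 26.0 TPM in GDNF cultures 6, 12, 17 and 22. The groups did not overlap. The means were 15.4 ± 4.65 and 26.8 ± 3.78 TPM (SD, n = 4 each), 1.74-fold apart (exact permutation test, two-sided, p = 0.0286, the smallest that 70 assignments allow, adjusted over all genes 0.119). Such a separation was common in TPM: in 23.4% of 13698 genes every GDNF culture was above every control, in 0.679% every one was below, and 78.6% of genes had a higher mean TPM after GDNF, with a median log2 ratio of 0.40. In CPM with TMM (counts scaled to the size of each library, not to length), where the median log2 change over all genes was 0.03, *Pkd2* was at 38.3, 54.3, 57.4 and 56.5 in controls and at 60.7, 76.5, 78.3 and 64.0 after GDNF. These groups did not overlap either, which in CPM held for 6.99% of genes in this direction. The log2 change was 0.44 ± 0.17 (SE; edgeR, adjusted p = 0.187) and 0.32 ± 0.13 without control culture 3 (adjusted p = 0.341). Without that culture the exact permutation test of TPM gave p = 0.0571 for *Pkd2* and for *Dzip1l*. The groups of both genes still did not overlap in TPM there, and fewer than 70 assignments were left to the test.

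*Pkhd1*, the fibrocystin gene, was at 1.49, 4.01, 0.724 and 1.90 TPM in control cultures 3, 7, 14 and 21 and at 4.89, 5.65, 1.95 and 3.72 TPM in GDNF cultures 6, 12, 17 and 22. The groups overlapped, with control culture 7 above GDNF cultures 17 and 22. The means were 2.03 ± 1.41 and 4.05 ± 1.61 TPM (SD, n = 4 each; exact permutation test, two-sided, p = 0.114, adjusted over all genes 0.232), and the log2 change in counts was 0.62 ± 0.48 (SE; edgeR, adjusted p = 0.455). It was 1.12 ± 0.44 without control culture 7 (adjusted p = 0.175) and 0.33 ± 0.39 without control culture 14 (adjusted p = 0.621).

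*Dzip1l*, of the cilium base, was at 5.05, 10.7, 9.03 and 11.2 TPM in control cultures 3, 7, 14 and 21 and at 13.2, 19.2, 15.4 and 18.1 TPM in GDNF cultures 6, 12, 17 and 22. It was the other member whose groups did not overlap, in TPM and in CPM (17.02 to 26.3 against 27.8 to 37.7). The means were 8.99 ± 2.78 and 16.5 ± 2.69 TPM (SD, n = 4 each), 1.83-fold apart (exact permutation test, two-sided, p = 0.0286, adjusted over all genes 0.119). The log2 change in counts was 0.51 ± 0.17 (SE; edgeR, adjusted p = 0.168) and 0.40 ± 0.15 without control culture 3 (adjusted p = 0.313).

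**Figure D2:**
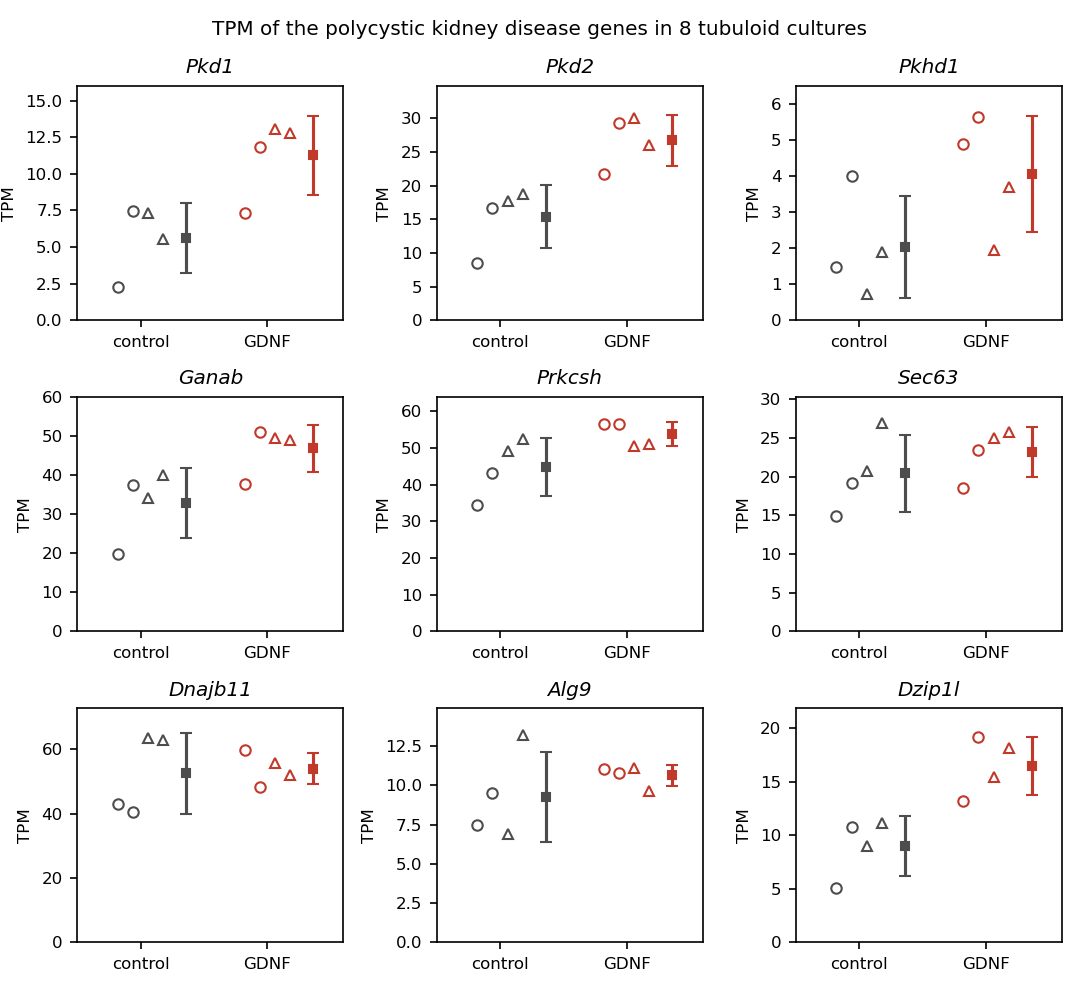
TPM (vertical axes, from 0) of each member in the 4 control (grey) and 4 GDNF (red) cultures, with circles for cultures with Xist RNA, triangles for those with Y-linked RNA, and squares with bars for the group mean and SD. The groups are apart for *Pkd2* (8.57 to 18.7 against 21.8 to 30.01) and *Dzip1l* (5.05 to 11.2 against 13.2 to 19.2) and overlap for the other 7 genes.

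The genes of the endoplasmic reticulum showed smaller differences. *Ganab* was at 19.9, 37.6, 34.2 and 40.0 TPM in control cultures 3, 7, 14 and 21 and at 37.9, 51.1, 49.5 and 49.1 TPM in GDNF cultures 6, 12, 17 and 22, so that GDNF culture 6 lay among the controls. *Prkcsh*, whose product anchors the *Ganab* enzyme in the endoplasmic reticulum, was at 34.6, 43.1, 49.1 and 52.6 TPM in controls and at 56.5, 56.6, 50.6 and 51.2 TPM after GDNF. Control culture 21 was above GDNF cultures 17 and 22, and control culture 3 was lowest for both subunits.

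*Sec63* was at 14.9, 19.2, 20.8 and 27.0 TPM in control cultures 3, 7, 14 and 21 and at 18.6, 23.5, 25.0 and 25.8 TPM after GDNF, and the highest value was a control. *Dnajb11* was at 42.8, 40.6, 63.5 and 62.9 TPM in controls and at 59.6, 48.4, 55.6 and 51.9 TPM after GDNF, all 4 GDNF cultures lying between the lower and the higher pair of controls. *Alg9*, which adds mannose to the N-glycan precursor, was at 7.48, 9.48, 6.91 and 13.2 TPM in controls and within 9.66 to 11.1 TPM after GDNF.

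For these 5 genes the GDNF to control ratio of mean TPM was 1.42 for *Ganab*, 1.20 for *Prkcsh*, 1.13 for *Sec63*, 1.03 for *Dnajb11* and 1.15 for *Alg9* (exact permutation tests, two-sided, p from 0.0571 to 0.8286). The median of all genes, given above as a log2 ratio of 0.40, lay between the ratios of *Prkcsh* and *Ganab*. On counts with TMM the log2 change was 0.14 ± 0.15 for *Ganab*, -0.12 ± 0.13 for *Prkcsh*, -0.20 ± 0.14 for *Sec63*, -0.34 ± 0.17 for *Dnajb11* and -0.19 ± 0.18 for *Alg9* (SE; edgeR, adjusted p from 0.261 to 0.596). The sign of 3 of them rested on the scaling: with library size alone, which moved the median of all genes to 0.25, the values were 0.10 for *Prkcsh*, 0.01 for *Sec63* and 0.03 for *Alg9*, while *Dnajb11* was at -0.12.

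The difference between the groups in *Pkd1*, *Pkd2* and *Pkhd1* was smaller once transcript length was taken into account. Over all cultures *Pkhd1* did not follow the order of the share of long transcripts. GDNF culture 17, with a share of 20.6%, was at 1.95 TPM, and control culture 7, with 15.6%, at 4.01 TPM. Within each kind of culture *Pkhd1* rose in the order of the share. With *Xist* RNA it was at 1.49, 4.01, 4.89 and 5.65 TPM at shares of 9.75%, 15.6%, 16.7% and 19.8%. With Y-linked RNA it was at 0.724, 1.90, 1.95 and 3.72 TPM at shares of 15.2%, 15.9%, 20.6% and 21.2%. In each kind this order also put the controls before the GDNF cultures, so that share and treatment cannot be told apart in it. The part of the share in these values was not tested. When a smooth trend of counts with transcript length (5 degrees of freedom) was taken out of each culture, the log2 change after GDNF was 0.17 ± 0.16 for *Pkd1* (0.65 before), 0.17 ± 0.49 for *Pkhd1* (0.62 before) and 0.19 ± 0.12 for *Pkd2* (0.44 before), by edgeR with adjusted p of 0.632, 0.892 and 0.429. The removed trend for a transcript of the length of *Pkd1* was -0.81 on the log2 scale in control culture 3, -0.21 to 0.11 in the other controls, 0.02 in GDNF culture 6 and 0.30 to 0.38 in the other GDNF cultures. After its removal *Pkd1* was at 48.9 to 74.2 CPM in controls and 54.6 to 73.4 CPM in GDNF cultures, and the values of *Pkd2* overlapped as well (49.9 to 62.1 against 56.7 to 68.6 CPM). The trend was estimated from the same cultures, and a real change shared by long transcripts would be taken out with it; the 2 cannot be told apart here.

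*Dzip1l* and *Sec63* were the members whose groups did not overlap on this scale. *Dzip1l* was at 19.2, 26.3, 24.2 and 24.9 CPM in control cultures 3, 7, 14 and 21 and at 28.0, 34.5, 28.2 and 32.2 CPM after GDNF, a log2 change of 0.38 ± 0.14 (SE; edgeR, adjusted p = 0.228). All GDNF cultures were above all controls in 4.4% of genes and below them in 5.98%. *Sec63*, which is long but had no higher count after GDNF, was at 107, 72.1, 84.3 and 96.9 CPM in controls and at 62.0, 61.1, 64.5 and 63.0 CPM in GDNF cultures, a log2 change of -0.52 ± 0.13 (SE; edgeR, adjusted p = 0.215). Both met an unadjusted p of 0.05, as did 5.62% of genes that were higher and 12% that were lower. *Sec63* met it with any 1 culture left out (edgeR, unadjusted p from 0.0007 to 0.0107), whereas *Dzip1l* missed it without control culture 3 (0.0501), GDNF culture 12 (0.0731) or GDNF culture 22 (0.0578). The values of *Sec63* before the correction overlapped (72.3 to 94.1 against 59.9 to 75.6 CPM), and its log2 change was then -0.20.

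**Figure D3:**
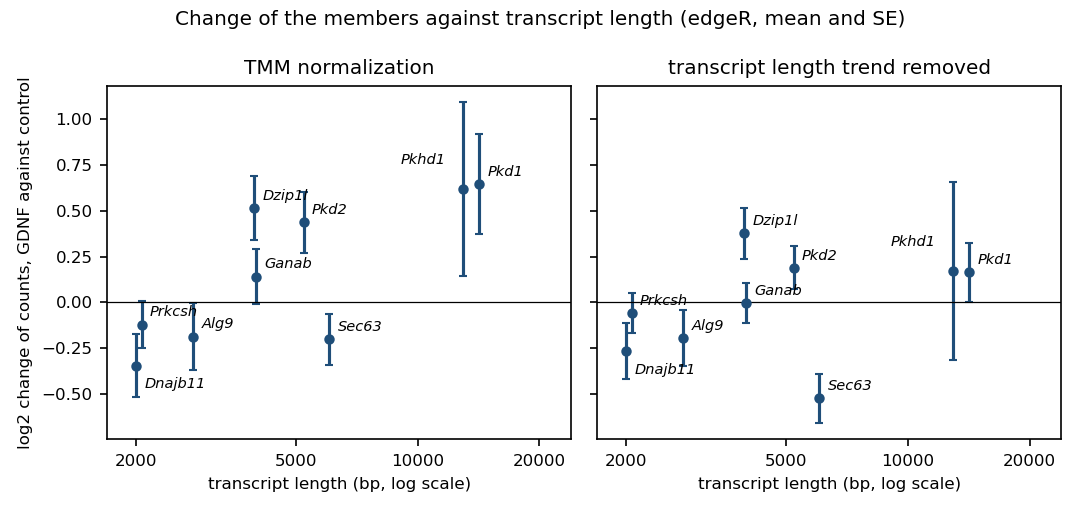
Log2 change of counts, GDNF against control (vertical axis; points, edgeR estimate; bars, SE), against transcript length (horizontal axis, bp, log scale) for the 9 members, with TMM normalization (left) and with the transcript length trend removed (right). *Pkd1* and *Pkhd1*, the longest, go from 0.65 and 0.62 to 0.17 and 0.17, and *Sec63* from -0.20 to -0.52.

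*Pkhd1* was higher on average in cultures with *Xist* RNA, with a log2 difference of 1.14 beside 0.62 for GDNF. Its CPM was 16.5 and 32.4 in control cultures 3 and 7 and 33.8 and 36.6 in GDNF cultures 6 and 12, which carried *Xist* RNA, against 5.83 and 14.2 in control cultures 14 and 21 and 12.6 and 22.7 in GDNF cultures 17 and 22, which carried Y-linked RNA. Within each treatment both cultures with *Xist* RNA were above both with Y-linked RNA, and across treatments control culture 3 was below GDNF culture 22. In a model with treatment this difference (*Xist* minus Y-linked) was 1.14 ± 0.32 (SE; edgeR, adjusted p = 0.207), and 0.89 to 1.39 with any 1 culture left out (adjusted p from 0.133 to 0.481). It was 1.30 ± 0.27 with the length trend removed (adjusted p = 0.0946) and 1.13 ± 0.33 by DESeq2, which called it (adjusted p = 0.022). edgeR called 68 genes between the kinds of culture (0.411%), none of them a member, and DESeq2 called 571 (3.45%), with *Pkhd1* as the 1 member. The edgeR count fell to 1 without control culture 3 or GDNF culture 17, and to between 3 and 39 without 5 of the other 6 cultures. At an unadjusted p of 0.05, *Pkhd1* was the member among the 7.13% of genes that were higher with *Xist* RNA in edgeR.

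Markers of the collecting duct and distal tubule moved with *Pkhd1* between the kinds of culture. Their summed level over 8 genes was 39.5, 45.6, 134 and 54.8 TPM in cultures 3, 7, 6 and 12 with *Xist* RNA and 9.45, 19.1, 18.6 and 25.8 TPM in cultures 14, 21, 17 and 22, with no overlap. By group means, most of this sum was *Fxyd4* (13.6 TPM in controls and 28.1 TPM after GDNF) and *Calb1* (6.45 and 16.6 TPM). Of the 7 tested, 5 met an unadjusted p of 0.05 higher with *Xist* RNA and 3 were called by edgeR at an adjusted p of 0.05: the vasopressin receptor *Avpr2*, the sodium pump regulator *Fxyd4* and the calcium-binding *Calb1*. *Umod*, the uromodulin gene of the thick ascending limb, was called as well (log2 difference 3.4 ± 0.39, SE; edgeR, adjusted p = 0.0142). *Aqp3* had a negative log2 difference (-0.20), and *Aqp2* stayed under the filter. Markers of other cells also moved with the kind of culture. Of 10 stromal markers 4 met an unadjusted p of 0.05 lower with *Xist* RNA and none higher, with a median log2 difference of -0.80, and edgeR called *Dcn*, the decorin gene (-3.21, adjusted p = 0.0430), although their sums overlapped at 228 to 1198.5 TPM with *Xist* RNA and 686 to 1778 TPM with Y-linked RNA. Of 7 tested endothelial markers 3 were lower at that threshold (median -0.80). Over all 16557 genes, 865 were lower and 1181 higher with *Xist* RNA at that threshold. Of 10 tubule epithelium markers 1 was higher, the adhesion molecule *Epcam* (0.95, edgeR unadjusted p = 0.0069). The part of these markers in the values of *Pkhd1* was not tested. Control culture 7 and GDNF culture 12 had 0 TPM of Y-linked RNA, and cultures 14, 21, 17 and 22 had 116 to 194 TPM in sum. These cultures of different kinds cannot come from the same mouse, so that sex and animal cannot be told apart. Within the kinds, GDNF minus control for *Pkhd1* was 0.51 ± 0.37 with *Xist* RNA and 0.82 ± 0.52 with Y-linked RNA (log2, SE; 2 cultures a side), and with a term for the kind of culture it was 0.67 ± 0.32 (edgeR, adjusted p = 0.230).

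**Figure D4:**
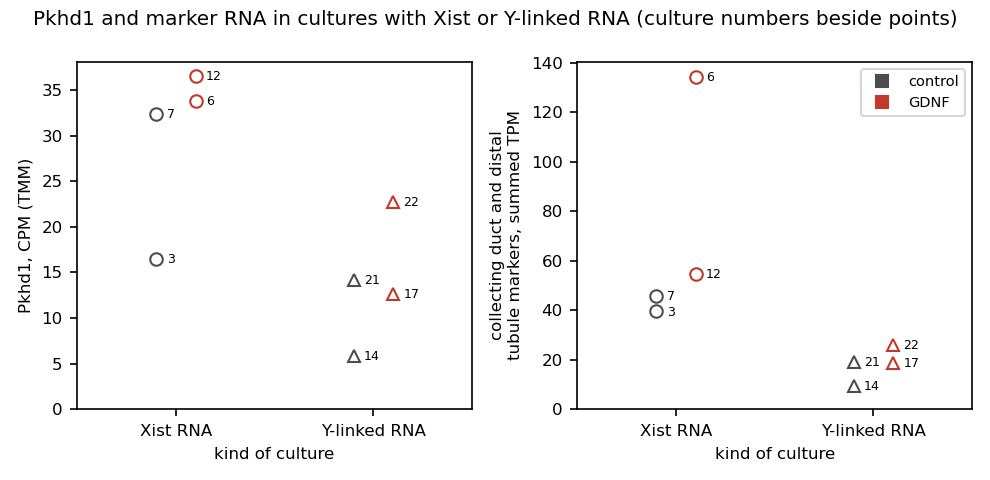
*Pkhd1* in CPM with TMM (left) and the summed TPM of 8 collecting duct and distal tubule markers (right) in cultures with Xist RNA (circles) and with Y-linked RNA (triangles), controls in grey and GDNF in red, with culture numbers. *Pkhd1* lies at 16.5 to 36.6 CPM against 5.83 to 22.7 CPM, and the markers at 39.5 to 134 TPM against 9.45 to 25.8 TPM.

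The other 8 members had log2 differences between kinds of culture from -0.29 (*Pkd1*) to 0.10 (*Alg9*), none called by edgeR, with adjusted p of at least 0.575. Whether GDNF acted differently in the kinds of culture was tested by an interaction term with 2 cultures in each combination: 0 genes were called by edgeR (percent called 0), with 94 at an unadjusted p of 0.05, and 0 by DESeq2. The term was largest for *Dnajb11*, at 0.39 ± 0.36 (edgeR, adjusted p = 1.0).

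Genes known to work with the members, from lists set by function, were counted in the same test. Of 27 partners of the endoplasmic reticulum genes (the Sec61 translocon, N-glycan synthesis, the oligosaccharyltransferase and lectin chaperones) 11 met an unadjusted p of 0.05 lower after GDNF and 1 higher, beside 12.9% and 9.25% of all genes, and none an adjusted p of 0.05. The median log2 change was -0.22 beside 0.03 over all genes, and 20 of 27 were negative. The largest was in *Ostc*, a subunit of the oligosaccharyltransferase, at 607 TPM in controls and 489 TPM after GDNF (log2 change of counts -0.74 ± 0.21, SE; edgeR, adjusted p = 0.167). The smallest p was that of the disulfide isomerase *Pdia3* (-0.65 ± 0.17; edgeR, adjusted p = 0.167), and the 1 higher gene was *Mogs*, glucosidase I (0.35 ± 0.13). With the length trend removed the median was -0.26, beside -0.03 over all genes, with 12 lower and 2 higher, beside 12% and 5.62% of all genes. DESeq2 called 8 of the 27, beside 8.13% of all genes.

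Partners at the cilium had a median above that of all genes. Of 17 transition zone and cilium base genes around *Dzip1l*, 6 met an unadjusted p of 0.05 higher and 2 lower, beside 9.25% and 12.9% of all genes, with a median of 0.36 beside 0.03. With the length trend removed the median was 0.14 beside -0.03, with 4 higher and 1 lower. *Mks1*, a transition zone protein, averaged 6.51 ± 1.29 TPM in controls and 13.8 ± 1.95 TPM after GDNF (SD, n = 4 each), with a log2 change of counts of 0.70 ± 0.19 (SE) and an adjusted p of 0.167 by edgeR. *Cby1*, of the basal body, was the largest in the other direction (-0.72 ± 0.22) and the 1 gene of this list that DESeq2 called. Some genes of the list, *Mks1*, *Tctn3* and *Cc2d2a* among them, got no adjusted p from DESeq2. Of 15 tested partners in the trafficking or binding of the polycystins, 3 met the threshold higher and 4 lower, against the same shares of all genes, with a median of 0.21 and, with the length trend removed, of -0.01. The largest was the calcium release channel *Itpr2* at 0.70 ± 0.22, which was 0.25 with the length trend removed. *Arl3* was the 1 gene of this list that DESeq2 called. By edgeR it was lower, at -0.61 ± 0.20, and at -0.30 with the length trend removed.

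Among 20 other genes of cystic kidney or liver disease, 7 met the unadjusted threshold higher and 2 lower, beside 9.25% and 12.9% of all genes, with a median of 0.39 (0.18 with the length trend removed). DESeq2 called 4, given here with the log2 change and SE of edgeR, where each had an adjusted p of 0.167. *Glis3*, a transcription factor of cystic kidney disease (0.80 ± 0.26), and *Nek8*, a ciliary kinase (0.46 ± 0.13), were higher. *Sec61b* (-0.72 ± 0.19) and the glucosyltransferase *Alg5* (-0.59 ± 0.19) were lower. These are the 2 lower genes of this list, and they were also counted among the partners of the endoplasmic reticulum genes. The Wnt co-receptor *Lrp5* had the smallest p by edgeR (0.72 ± 0.17, adjusted p = 0.167) and got no adjusted p from DESeq2. *Tsc2*, the neighbour that overlaps the end of *Pkd1*, was at 4.86 to 11.9 TPM in controls and 12.4 to 20.96 TPM after GDNF (log2 change of counts 0.53 ± 0.21; edgeR, adjusted p = 0.198).

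The paralogues of the polycystins and of fibrocystin were detected unevenly. Of the 6 in the tables, *Pkd1l2*, *Pkd2l1*, *Pkdrej* and *Pkhd1l1* had at most 36 counts in any culture and were not tested. *Pkd1l3* averaged 3.05 ± 0.609 TPM in controls and 4.42 ± 0.328 TPM after GDNF, and *Pkd2l2* averaged 3.95 ± 1.45 and 7.12 ± 0.996 TPM (SD, n = 4 each), with log2 changes of 0.16 ± 0.13 and 0.52 ± 0.23 and edgeR adjusted p of 0.474 and 0.219.

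The pattern of each gene over the 8 cultures was set beside that of all others. Among 11461 genes with a mean of at least 5 CPM, the genes most like *Pkd1* included, by Pearson correlation of log2 CPM over 8 cultures, *Plce1*, *Pds5a*, *Ptpdc1* and *Zer1* (r from 0.993 to 0.999), with transcripts of 4146 to 9509 bp. Those most like *Pkd2* were *Supt6*, *Fanci*, *Mink1*, *Abca7* and *Pank4* (r from 0.974 to 0.988), with transcripts of 2565 to 6594 bp. *Pkd1* and *Pkd2* correlated at 0.91, which 562 genes exceeded for *Pkd1*. The genes most like *Pkhd1* were *Sox7*, *Ttll10*, *Klhdc7a*, 9430083A17Rik and *Plekhs1* (r from 0.977 to 0.984), and *Pkhd1* correlated with *Pkd1* at 0.12 and with *Pkd2* at 0.15. The points share libraries, their content of long transcripts and the 2 treatments, and these values are a description.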

How the data were processed

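RNA of 8 tubuloid cultures was sequenced by the authors from SMART-Seq v4 libraries with poly-A selection as 75 bp paired-end reads, in 2 lanes of 4 samples; the lane of each culture is not given in the sources used here. The submitters' processing notes name STAR, featureCounts and DESeq2, without versions, and the builds mm10 and GRCm38. The authors deposited, for each culture and RefSeq transcript, raw counts, FPKM (scaled to transcript length and library) and TPM. Reads shared by transcripts of a gene appear in the deposited counts of each. The deposited columns sum to 72991721 to 97490625 counts per culture.

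Counts were summed per gene symbol, filtered with filterByExpr, normalized with TMM and tested with edgeR 4.0.16 (quasi-likelihood, Benjamini-Hochberg over 16557 genes, threshold 0.05) in R 4.3.3. Alternatives were DESeq2 1.42.0, limma 3.58.1 (voom with quality weights), other normalizations, no filter, the highest transcript of a gene, offsets for transcript length (spline with 5 degrees of freedom), a term for the kind of culture, and each culture left out. Transcript length was taken from counts and FPKM and came out whole within 0.1 bp for all 29020 detected transcripts. TPM was compared by exact permutation over 70 assignments with Python 3.11.15; p-values were adjusted over all 13698 genes whose mean reached 1 TPM, in place of the members alone as first planned. Correlations used log2 CPM with a prior count of 1. Scripts were tested on simulated data. Nothing in the labels places the cultures in separate animals, though by *Xist* and Y-linked RNA they do not all come from a single mouse.

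Named were the members, genes that overlap them, the list genes with the smallest p or largest change, and the 5 genes most like *Pkd1*, *Pkd2* and *Pkhd1*. Other genes named from counts of 5 or fewer, and *Umod* and the collecting duct markers, were named after their values were seen. A gene among those most like *Pkd1* is not reported here. The members and lists were chosen with earlier results of these data known. The fits within each kind of culture, and those that combine the length trend with the kind of culture or with a culture left out, were added after seeing the data.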

Additional observations from a re-analysis of the deposited data

Results flagged for a closer look

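In 36 sets of 4 cultures, 1 culture was searched for that lay well away from its group; chance picks about 1 in 20 sets, and 2 were found. *Pkd2* in control culture 3 was at 38.3 CPM, against 54.3 to 57.4 CPM in the other controls. *Ganab* in GDNF culture 6 was at 37.9 TPM, against 49.1 to 51.1 TPM in the other GDNF cultures. Control culture 3 also had the lowest share of counts in long transcripts, and its part in the *Pkd2* value was not tested.

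*Dnajb11* moved in opposite directions with GDNF in the kinds of culture. GDNF minus control was 12.3 TPM in cultures with *Xist* RNA (42.8 and 40.6 against 59.6 and 48.4) and -9.45 TPM in those with Y-linked RNA (63.5 and 62.9 against 55.6 and 51.9). The difference in TPM was not tested. On counts the interaction was 0.39 ± 0.36 on the log2 scale (SE; edgeR, adjusted p = 1.0), and both directions were negative there (-0.14 and -0.53).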

How the results depend on the processing

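No member was called for GDNF by edgeR under any alternative. The log2 changes of *Pkd1*, *Pkd2*, *Dzip1l* and *Dnajb11* kept their sign in all 28 alternatives each. DESeq2 called 1346 genes for GDNF where edgeR called 0, and 12 list genes where edgeR called 0; the cause was not tested. With library size only, *Prkcsh* was at 0.10, *Sec63* at 0.014 and *Alg9* at 0.031 for GDNF. *Prkcsh* was at 0.049 within cultures with *Xist* RNA. With the length trend removed *Ganab* was at -0.0036, and at -0.0027 with a term for the kind of culture as well; leaving out 1 culture there gave -0.067 (without control culture 3) to 0.03 for *Ganab*, negative also without GDNF culture 12 (-0.032), 17 (-0.020) or 22 (-0.0029), and -0.12 to 0.44 for *Pkhd1*, negative without control culture 14 (-0.12) or GDNF culture 6 (-0.084).

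In CPM with TMM in place of TPM, the GDNF minus control difference was -14.8 for *Prkcsh*, -10.4 for *Sec63*, -38.3 for *Dnajb11* and -4.09 for *Alg9*, all positive in TPM. The number of members with an exact TPM p of at most 0.05, 2 with all cultures, was 0 to 4 with 1 culture left out: 0 without control culture 3 (the groups of *Pkd2* and *Dzip1l* still apart), 1 without control culture 14, and 4 without control culture 21 or GDNF culture 6. *Dnajb11* ranged from -2.54 to 5.10 TPM there.

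Between the kinds of culture, 68 genes were called by edgeR, 571 by DESeq2 (1 member), 31 with library size only and 172 with no filter. With 1 culture left out the count was 1 to 54: 1 without control culture 3 or GDNF culture 17, 3 without control culture 7, 8 without GDNF culture 6, and 26 to 39 without control cultures 14 or 21 or GDNF culture 22. *Prkcsh* was at -0.013 with library size only and -0.025 with the length trend removed, against 0.07. With 1 culture left out *Dzip1l* ranged from -0.17 to 0.080, *Dnajb11* from -0.23 to 0.035 and *Alg9* from -0.034 to 0.29.

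No paired analysis was possible because the groups share no culture numbers. The lowest count of a member was 546.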
